A study of Mus musculus with 43 samples.

Results

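Fosl2, Junb, Egr1, Egr2 and Npas4 are immediate early genes, and they were taken by symbol, through their Ensembl identifiers, from a table of 10127 genes, in which all 5 were found. The table holds RNA-seq of laser-captured hypothalamic nuclei from adult male C57/BL6 mice that all carried a deletion of Snord116 on the paternal chromosome, fed ad libitum or fasted for 24 h before the brain was taken. A nucleus was cut from many serial sections of 1 brain, its total RNA was amplified before sequencing, and no group without the deletion was analysed here. The arcuate nucleus (ARC) gave 4 fasted and 5 fed libraries, the dorsomedial hypothalamus (DMH) 5 and 6, the paraventricular nucleus (PVN) 5 and 5, and the ventromedial hypothalamus (VMH) 6 and 5, in all 41 libraries of 12 mice handled in 3 batches. Libraries are named by nucleus and mouse, so that ARC-86 and PVN-86 come from 1 animal.

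Immediate early genes are transcribed within minutes of a stimulus from factors that are already in the cell, and their transcripts are short lived. In neurons, calcium entry and kinase cascades act on serum response factor, which binds CArG boxes, and on CREB, which binds cyclic AMP response elements (CRE). Fosl2 (Fra-2) and Junb are basic leucine zipper proteins that pair in AP-1 dimers, Egr1 and Egr2 are zinc finger proteins that bind GC-rich sites, and Npas4 is a neuronal basic helix-loop-helix PAS factor that answers membrane depolarisation. In the hypothalamus such transcripts are widely used as marks of recent neuronal activity.

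Promoter sequence is shown because CRE and CArG boxes are the sites through which activity reaches these genes. The 250 bases before the RefSeq start site (GRCm38.p6) were searched on both strands for 5 motifs, namely the full CRE TGACGTCA, the shorter CRE core TGACG, the AP-1 site TGANTCA, the EGR site GCGNGGGCG and the CArG box. A CRE core lies within every full CRE. Of 32851 promoters of the same length, the full CRE was in 1.55%, the CRE core in 17.8%, the AP-1 site in 6.75%, the EGR site in 4.7% and the CArG box in 1.47%. Egr2 (chr10:67537619-67537868, plus strand) held 1 CArG box and 2 CRE cores, and Junb (chr8:84978749-84978998, minus strand) 1 CRE core. The motifs are in capitals.
Egr2: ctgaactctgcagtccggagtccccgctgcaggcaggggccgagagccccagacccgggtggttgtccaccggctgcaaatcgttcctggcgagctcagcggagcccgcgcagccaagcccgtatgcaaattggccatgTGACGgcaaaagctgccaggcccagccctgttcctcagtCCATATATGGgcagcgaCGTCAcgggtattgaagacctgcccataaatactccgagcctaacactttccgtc
Junb: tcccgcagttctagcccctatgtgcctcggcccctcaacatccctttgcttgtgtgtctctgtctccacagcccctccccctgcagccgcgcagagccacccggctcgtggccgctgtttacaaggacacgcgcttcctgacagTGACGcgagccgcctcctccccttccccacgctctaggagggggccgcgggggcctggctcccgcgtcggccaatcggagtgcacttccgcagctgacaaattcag
Npas4 held 2 CRE cores within chr19:4990129-4990158 (minus strand) and Fosl2 held 1 EGR site within chr5:32136382-32136411 (plus strand). Both windows start downstream of the principal GENCODE start, since the RefSeq start lies 671 bases (Fosl2) and 345 bases (Npas4) past it, and they fall in the first exon of that transcript. For these genes a run of 30 bases is given.
Npas4: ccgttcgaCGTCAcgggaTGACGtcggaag
Fosl2: tccggctgcgcGCGGGGGCGgaagggcgcg
No full CRE or AP-1 site was found in these 4 windows, which for Fosl2 and Npas4 do not cover the sequence before the principal start. Egr1 had no entry among the promoters used, so its promoter was not searched. A match is a run of letters and shows no binding.

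Values are CPM, the reads of a gene scaled to a common library total. Depth, read from the smallest step between values of a library, was 1.94 to 8.23 M reads, so that 1 read is worth 0.121 to 0.515 CPM. The marker genes of each nucleus were highest in the libraries labelled as that nucleus. The PVN also had the highest summed endothelial markers (7 of 10 listed genes measured), at 223 to 378 CPM against 64.5 to 199 CPM in the other nuclei. DMH-92, a fed library, stood apart in summed markers. Mural and meningeal markers (4 of 10 measured) summed to 371 CPM, against 19.2 to 61.0 CPM in the other 10 DMH libraries. Most of that sum was Igf2 alone (330 CPM). Col1a2 (30.2 CPM) was also the highest of the DMH, whereas Acta2 (9.57 CPM) and Lyve1 (1.45 CPM) were below the DMH maxima of 25.9 and 2.31 CPM. Oligodendrocyte markers (6 of 8 measured) summed to 1578 CPM against 455 to 1034 CPM. Its DMH markers Npvf, Hcrt and Pmch summed to 463 CPM, within the 261 to 867 CPM of the other DMH libraries. Its summed neuronal markers (2 of 7 measured) were lower, at 572 CPM against 699.9 to 822 CPM. Syt1 was the lowest of the DMH (450 CPM), while Tubb3 was at the DMH median (122 CPM). Its summed ARC markers (42.1 against 1.53 to 10.2 CPM) and PVN markers (45.0 against 10.1 to 23.9 CPM) were higher. These sums were mostly Npy (33.4 CPM) and Nrn1 (41.2 CPM), and the PVN marker Avp (1.45 CPM) was at the DMH median. Nrn1 is also on the list of immediate early effectors below. Summed microglial (177 against 52.4 to 146 CPM), endothelial (199 against 109 to 167 CPM) and blood markers (36.8 against 5.53 to 24.7 CPM) were higher in it too. Not every gene of these sums was high. The microglial Tmem119 (3.19 CPM) was below the DMH median of 5.79 CPM, and the endothelial Kdr (6.67 CPM) was at it. In captured tissue, fewer cells of a type and less RNA per cell cannot be told apart.

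The 5 genes differed widely in level and in how that level was distributed over the nuclei. All 5 passed the test of a level difference between nuclei (limma F-test with mouse as a block, Benjamini-Hochberg adjusted p below 0.1), as did 43% of 10121 genes tested. Per kb of exon, over all 41 libraries, Egr1 was highest with 30.1 ± 19.6 CPM per kb (SD, n = 41). Fosl2 followed with 5.35 ± 4.67 CPM per kb, and Npas4 (2.41 ± 2.21), Junb (2.39 ± 1.93) and Egr2 (2.37 ± 3.47) lay close together. The order changed with the nucleus. Per kb, Egr2 was second after Egr1 in the DMH with 6.76 CPM per kb, and it was the lowest of the 5 in the ARC, PVN and VMH with 0.698, 0.872 and 0.69 CPM per kb.

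**Figure D1:**
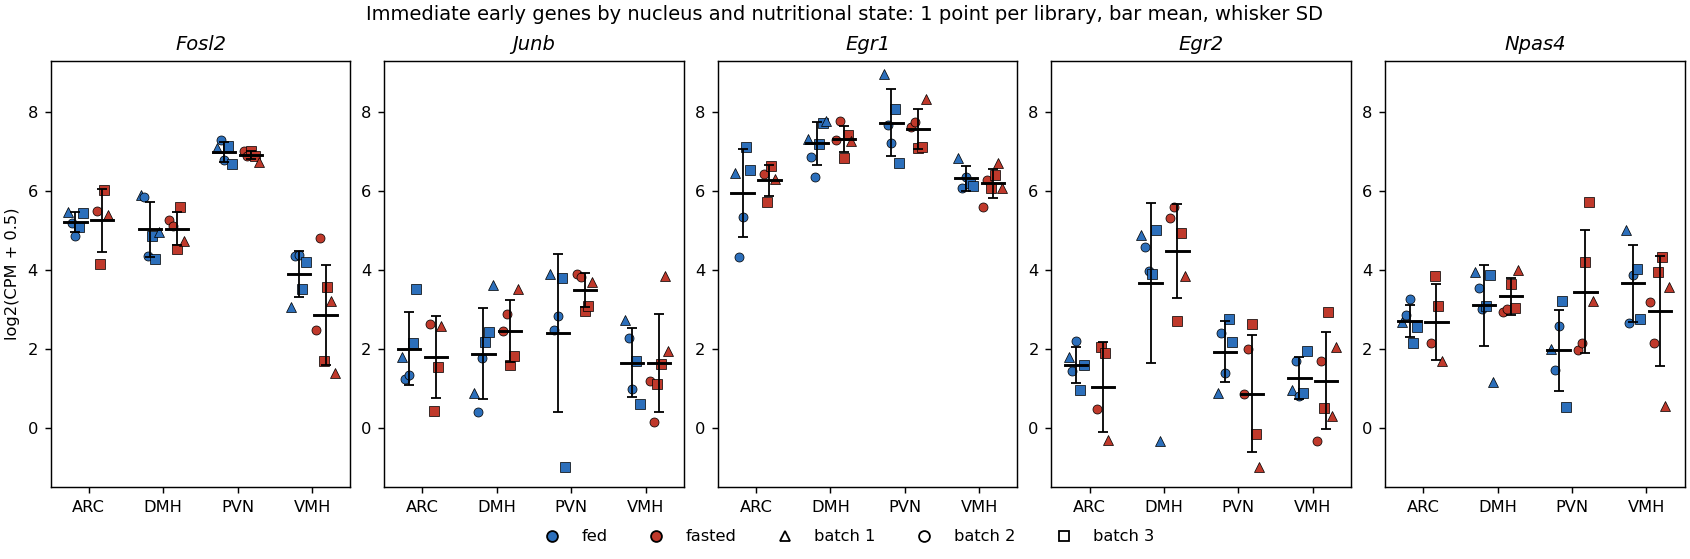
Level of each gene, as log2(CPM + 0.5), in every library by nucleus and nutritional state, with the mean and SD of each group and the batch as the marker shape. All 10 PVN libraries lie above every other library for Fosl2, 9 of 11 DMH libraries do for Egr2, and fed and fasted libraries overlap in each panel and nucleus.

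Fosl2 (ENSMUSG00000029135, chr5:32135801-32157842) was a PVN gene in these captures. It was measured at 104, 124 and 156 CPM (lowest, median and highest of 10 libraries) in the PVN, at 17.2, 41.4 and 65.2 CPM in 9 ARC libraries, at 18.8, 30.7 and 59.0 CPM in 11 DMH libraries and at 2.14, 11.1 and 27.7 CPM in 11 VMH libraries. Every PVN library exceeded all 31 others, and 7 of 11 VMH libraries lay below all libraries of the other nuclei. The PVN exceeded the VMH by 3.61 ± 0.24 on the log2(CPM + 0.5) scale (SE, adjusted p = 2.81e-15), in 10 of 10 mice. It exceeded the ARC by 1.63 (ARC minus PVN -1.63 ± 0.25, adjusted p = 4.62e-06) in 9 of 9 mice and the DMH by 1.91 (DMH minus PVN -1.91 ± 0.24, adjusted p = 1.21e-07) in 10 of 10 mice. The VMH was lower than the ARC (ARC minus VMH 1.98 ± 0.25, adjusted p = 5.35e-08) and the DMH (1.70 ± 0.24, adjusted p = 8.17e-07), whereas ARC and DMH did not differ beyond their spread (0.28 ± 0.25, adjusted p = 0.546). The order PVN, then ARC and DMH, then VMH was seen in each batch, with batch means of 121, 129 and 123 CPM in the PVN and 6.26, 18.3 and 10.8 CPM in the VMH. The endothelial sum was highest in the same nucleus, and its part in the PVN level was not tested.

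Egr2 (ENSMUSG00000037868, chr10:67535475-67542188), the gene with the CArG box above and best known for its roles in hindbrain segmentation and peripheral myelination, was a DMH gene. Fasted DMH libraries held 39.5, 48.4, 6.03, 30.2 and 14.0 CPM (DMH-100, DMH-101, DMH-305, DMH-311 and DMH-86). Fed DMH libraries held 29.3, 23.5, 15.2, 14.3, 32.0 and 0.290 CPM (DMH-111, DMH-125, DMH-127, DMH-308, DMH-313 and DMH-92). The last is a single read, in the library that stood apart by its summed markers, and the other 10 lay between 6.03 and 48.4 CPM. The ARC held 0.304 to 4.11 CPM, the VMH 0.300 to 7.22 CPM and the PVN 0 to 6.33 CPM, so that 9 of 11 DMH libraries exceeded all 30 libraries of the other nuclei. Fasted PVN-86 had no Egr2 read, which allows up to 0.567 CPM (3 reads, counting error only). The DMH exceeded the ARC (ARC minus DMH -3.06 ± 0.44, adjusted p = 2.22e-06), the PVN (3.08 ± 0.43, adjusted p = 7.48e-07) and the VMH (3.16 ± 0.43, adjusted p = 2.64e-07), on the log2(CPM + 0.5) scale and in every mouse with both nuclei (9, 10 and 10 mice). The ARC, PVN and VMH could not be ordered, with differences of 0.02 to 0.10 and adjusted p between 0.906 and 0.987. DMH means were 14.5, 31.7 and 20.7 CPM in batches 1, 2 and 3, and PVN means 0.679, 2.94 and 4.13 CPM. The low DMH library does not enter these paired differences, because the mice of VMH-85 and DMH-92 have 1 usable library each. A further column of each mouse is headed ARC while the labels give PVN, and it was left out, so the counts of mice here do not include them.

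Egr1 (ENSMUSG00000038418, chr18:34859823-34864984), a zinc finger factor induced by growth factors and synaptic activity, split the nuclei into a higher and a lower pair. It was measured at 105, 201 and 499 CPM (lowest, median and highest) in the PVN and at 81.5, 156 and 219 CPM in the DMH, against 19.7, 85.7 and 139 CPM in the ARC and 48.0, 73.3 and 115 CPM in the VMH. The PVN exceeded the VMH by 1.45 ± 0.20 (adjusted p = 1.85e-07) in 10 of 10 mice and the ARC in 9 of 9 mice (ARC minus PVN -1.51 ± 0.21, adjusted p = 3.80e-07). The DMH exceeded the VMH by 1.00 ± 0.20 (adjusted p = 0.000176) in 10 of 10 mice and the ARC in 9 of 9 mice (ARC minus DMH -1.06 ± 0.21, adjusted p = 0.000223). Neither pair could be ordered within itself (DMH minus PVN -0.45 ± 0.20, adjusted p = 0.133; ARC minus VMH -0.06 ± 0.21, adjusted p = 0.879). Batch means in the PVN were 410, 192 and 162 CPM for batches 1, 2 and 3, against 178, 143 and 161 CPM in the DMH, so that the PVN stood well above the DMH in batch 1 only. Without the mouse of PVN-313, the difference between DMH and PVN passed (-0.66, adjusted p = 0.0124).

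Junb (ENSMUSG00000052837, chr8:84974484-84978718), the partner of Fos proteins in AP-1, was low throughout and highest in the PVN. PVN values were 14.3, 13.7, 7.25, 8.07 and 12.5 CPM in fasted mice (PVN-100, PVN-101, PVN-305, PVN-311 and PVN-86) and 14.4, 5.08, 6.66, 13.4 and 0 CPM in fed mice (PVN-111, PVN-125, PVN-127, PVN-308 and PVN-313). The value of 0 stands alone, since the other 9 PVN libraries were at 5.08 CPM or above, and it allows up to 0.714 CPM. The other nuclei ranged from 0.609 to 13.9 CPM, with means of 4.03 ± 3.07 CPM in the ARC (SD, n = 9), 4.93 ± 3.64 CPM in the DMH (n = 11) and 3.60 ± 3.77 CPM in the VMH (n = 11), against 9.53 ± 4.87 CPM in the PVN (n = 10). Only PVN against VMH passed (1.52 ± 0.44, adjusted p = 0.00754), higher in 9 of 10 mice. Batch means were 13.4, 9.94 and 7.17 CPM in the PVN and 7.80, 2.06 and 1.99 CPM in the VMH. Without the mouse of PVN-313 the PVN also passed against the ARC (ARC minus PVN -1.67, adjusted p = 0.000750) and the DMH (DMH minus PVN -1.49, adjusted p = 0.00199). With a pseudocount of 2 CPM the PVN also passed against the ARC (ARC minus PVN -0.89, adjusted p = 0.0429) and the DMH (DMH minus PVN -0.82, adjusted p = 0.0513). The F-test over the 4 nuclei (adjusted p = 0.0338) rose to 0.1003, 0.110 and 0.126 without the mouse of PVN-101, PVN-127 or PVN-308. It rose to 0.174 with a pseudocount of 0.1 CPM. The 3′ end of Junb overlaps Prdx2 on the opposite strand, and whether strand was used in counting is not given in the sources used here.

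Npas4 (ENSMUSG00000045903, chr19:4984355-4990316) had no nucleus of its own. It was measured at 2.74, 5.91 and 13.8 CPM (lowest, median and highest) in the ARC, 1.74, 8.02 and 15.5 CPM in the DMH, 0.952, 4.69 and 52.6 CPM in the PVN and 0.976, 11.3 and 31.7 CPM in the VMH. The highest value was that of fasted PVN-311 (261 reads) and the next that of fed VMH-111 (109 reads). Within mice, the VMH exceeded the ARC (ARC minus VMH -0.98 ± 0.35, adjusted p = 0.0348) in 8 of 9 mice and the PVN (PVN minus VMH -0.84 ± 0.33, adjusted p = 0.0581) in 8 of 10 mice, while the other 4 pairs did not pass. Batch means were 14.7, 8.20 and 14.2 CPM in the VMH, against 4.32, 6.61 and 7.80 CPM in the ARC and 6.21, 3.78 and 20.1 CPM in the PVN, where batch 3 holds PVN-311. These calls are fragile. With no mouse block, the F-test had an adjusted p of 0.379 in place of 0.0372, and neither pair call held (ARC minus VMH -0.67, PVN minus VMH -0.62). The adjusted p of the F-test was 0.134, 0.103 and 0.128 without the mouse of VMH-86, VMH-100 or VMH-111. Between ARC and VMH the adjusted p was 0.110 and 0.114 without the mouse of VMH-86 or VMH-111, and between PVN and VMH it was 0.181, 0.167 and 0.103 without that of VMH-100, VMH-111 or VMH-313. Npas4 was in turn called between ARC and DMH (-0.97, -1.01 and -0.94) without the mouse of DMH-127, DMH-305 or DMH-311, and between DMH and PVN (0.91 and 1.02) without that of PVN-308 or PVN-311.

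Over pairs of nuclei, 2 of 5 genes passed between ARC and DMH (17.6% of all genes tested), 2 of 5 between ARC and PVN (16.9%), 2 of 5 between ARC and VMH (30.2%), 2 of 5 between DMH and PVN (18.5%), 3 of 5 between DMH and VMH (22.6%) and 4 of 5 between PVN and VMH (31.9%). Egr2 alone was not called between PVN and VMH.

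**Figure D2:**
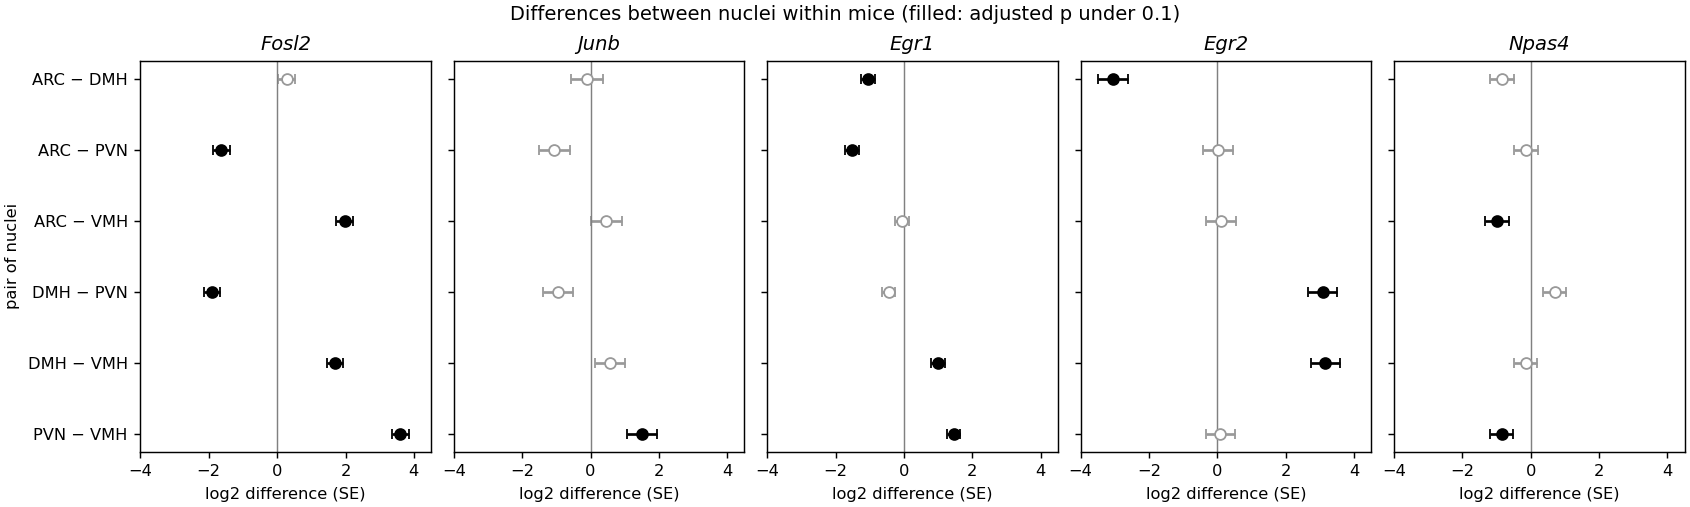
Difference between each pair of nuclei within mice, on the log2(CPM + 0.5) scale, with its SE. Filled points passed at an adjusted p below 0.1; the largest are PVN over VMH for Fosl2 (3.61) and DMH over VMH for Egr2 (3.16).

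The comparison of fasted and fed mice asked whether a 24-h fast moved these transcripts within a nucleus. None of the 5 genes passed in any nucleus or in the mean of the 4 nuclei (limma with batch as a covariate, adjusted p between 0.418 and 0.999). Of all genes tested, 0.176% passed in the ARC, 0.0103% in the DMH, 0.367% in the PVN, 0.0208% in the VMH and 3.18% in the mean of the nuclei (322 genes, against 2 genes in the fit with 1 value per mouse). Fasted and fed values of every one of the 5 genes overlapped in each nucleus, where 2.13%, 0.4%, 1.31% and 0.5% of all genes had no overlap in ARC, DMH, PVN and VMH.

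Npas4 in the PVN was the only one of the 5 genes below an unadjusted p of 0.05 within a nucleus, as were 950 of all 9529 genes tested in the PVN (limma). Fasted libraries held 3.45, 3.91, 17.9, 52.6 and 8.89 CPM (PVN-100, PVN-101, PVN-305, PVN-311 and PVN-86) and fed libraries 3.53, 2.29, 5.47, 8.81 and 0.952 CPM (PVN-111, PVN-125, PVN-127, PVN-308 and PVN-313). PVN-305, PVN-311 and PVN-86 lay above all fed libraries, PVN-86 by little, and PVN-100 and PVN-101 lay among them. The difference was 1.49 ± 0.60 on the log2(CPM + 0.5) scale (adjusted p = 0.418), with 1.22, 0.03 and 3.09 in batches 1, 2 and 3. It was 0.83 without PVN-313, 1.01 without PVN-311 and 1.89 without PVN-127. In the VMH it was -0.68 ± 0.57 (adjusted p = 0.898), in the DMH 0.20 ± 0.47 and in the ARC 0.00 ± 0.50 (adjusted p = 0.999). The VMH difference was 0.078 without VMH-111 and -1.06 without VMH-313, and the DMH difference -0.21 without DMH-86 and -0.16 without DMH-92, so that 1 library turned the direction in both. The test of a difference in fasting change between the nuclei gave an adjusted p of 0.853 for Npas4.

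Fosl2 in the VMH had the next largest ratio of difference to error. Fasted libraries ranged from 2.14 to 27.7 CPM with a median of 6.95 CPM (n = 6), and fed libraries held 7.85, 20.03, 20.5, 11.1 and 17.9 CPM (VMH-111, VMH-125, VMH-127, VMH-308 and VMH-313). Apart from VMH-101, which held the 27.7 CPM, no fasted VMH library was above 11.3 CPM. The difference was -0.92 ± 0.47 (adjusted p = 0.744), and it was negative in each batch (-0.75, -0.72 and -1.23). Leaving out VMH-305 or VMH-100 gave -0.61 or -0.62. In the other 3 nuclei the Fosl2 differences were 0.04 ± 0.31 (ARC), 0.05 ± 0.30 (DMH) and -0.09 ± 0.14 (PVN), and the test between nuclei again gave an adjusted p of 0.853. No gene of 10121 passed that test (limma, 0%), and 563 had an unadjusted p below 0.05, Npas4 and Fosl2 among them.

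For the remaining genes the fasting differences went both ways. Junb differed by 1.09 ± 0.63 in the PVN (adjusted p = 0.599), by 0.68 ± 0.57 in the DMH, by -0.23 ± 0.56 in the VMH and by -0.26 ± 0.64 in the ARC. The PVN value rests in part on the fed library at 0, and it was 0.27 when PVN-313 was left out and 1.75 when PVN-308 was. The DMH value was 0.36 without DMH-125 and 0.37 without DMH-111. Egr2 differed by -1.06 ± 0.59 in the PVN (adjusted p = 0.585), where its levels are a few reads, by 0.60 ± 0.65 in the DMH (adjusted p = 0.903), by -0.58 ± 0.63 in the ARC and by -0.05 ± 0.64 in the VMH. The PVN value was -0.61 without PVN-311, and -1.63 and -0.56 with pseudocounts of 0.1 and 2 CPM. The DMH value was 0.01 without DMH-92. Egr1 had differences between -0.19 and 0.16 in the 4 nuclei and SEs of 0.18 to 0.32, and 0.02 ± 0.15 in their mean. The ARC difference of Egr1 was -0.48 without ARC-100 and 0.47 without ARC-305. Leaving out 1 library also turned the direction of Egr1 in the DMH and PVN, of Fosl2 in the ARC and DMH, of Junb in the ARC and VMH, of Npas4 in the ARC and of Egr2 in the VMH. Over the 4 nuclei the mean differences of Fosl2, Junb, Egr2 and Npas4 were -0.25 ± 0.19, 0.35 ± 0.31, -0.21 ± 0.34 and 0.23 ± 0.29. Leaving out 1 mouse moved the Fosl2 mean to between -0.44 (mouse of VMH-311) and -0.076 (mouse of VMH-305) and the Junb mean to between 0.20 (mouse of PVN-100 or PVN-111) and 0.59 (mouse of PVN-308). It also turned the direction of the Egr1, Egr2 and Npas4 means, which ranged from -0.087 to 0.15, -0.39 to 0.089 and -0.033 to 0.53.

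**Figure D3:**
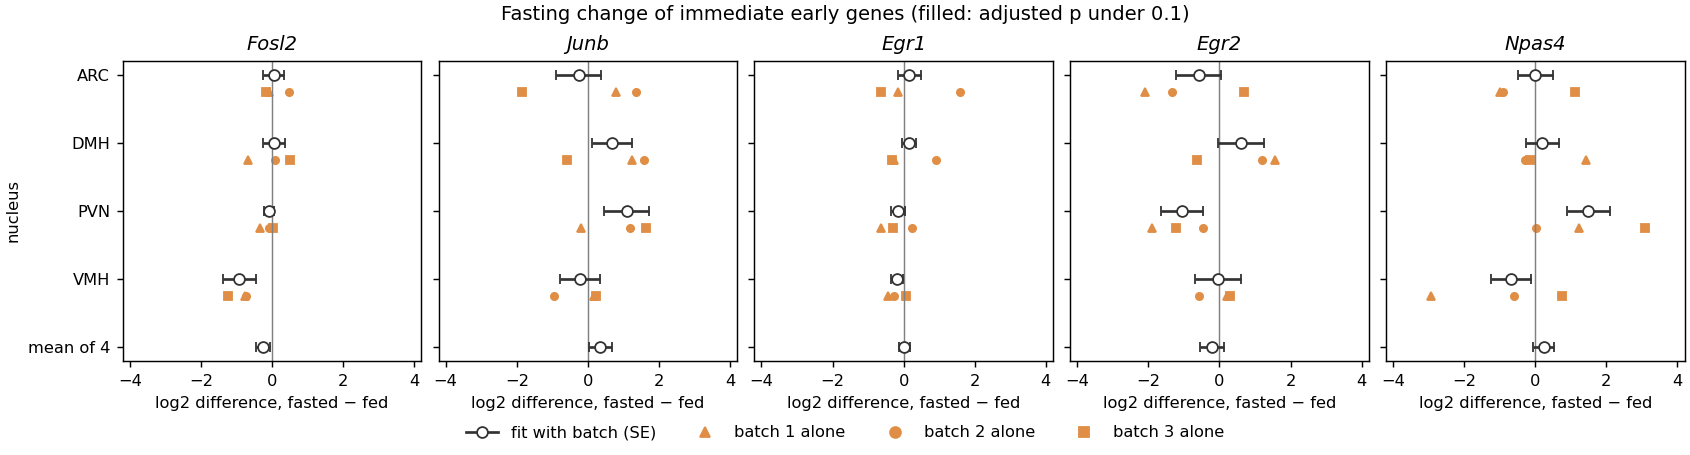
Fasting difference (fasted minus fed, log2(CPM + 0.5)) of each gene in each nucleus and in the mean of the 4 nuclei, with its SE, and the difference within each batch alone. No point is filled, since none passed at an adjusted p below 0.1; the largest estimate is that of Npas4 in the PVN (1.49).

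The spread between libraries of a nucleus was above that of the median gene in most cases. It holds counting and amplification noise as well as differences between mice, and these were not separated. The median is over genes of all levels, whereas Egr2, Junb and Npas4 had under 20 reads in 29, 23 and 11 of 41 libraries. After state and batch were accounted for, the residual SD on the log2 scale was 1.45 for Junb in the PVN, where PVN-313 holds 0. It was 1.67 for Egr2 in the DMH, where DMH-92 holds a single read, and 1.30 and 1.32 for Npas4 in the PVN and VMH. The median over all genes was 0.45 to 0.50 in these nuclei. Fosl2 in the PVN (0.22) and Egr1 in the VMH (0.31) and DMH (0.48) were tighter than the median of their nucleus.

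Immediate early genes that answer the same stimulus can be high together in a sample, and the libraries were searched for that. A library was called jointly high where at least 4 of the 5 genes lay at least 1 log2 unit above the median of their nucleus, and 0 of 41 libraries were. Fosl2 reached 1 log2 unit only in VMH-101 (1.28) and Egr1 only in PVN-111 (1.31). The rule was thus hard to meet, and the count of 0 does not show that joint induction was absent. At that distance 27 libraries had no high gene, 13 had 1 and 1 had 2. The last was fed VMH-111, with Junb 1.10 and Npas4 1.44 above the median. Fasted PVN-311, the highest in Npas4, had Egr2 at 0.403 CPM, below the PVN median of 2.81 CPM. Fasted VMH-85 had Junb at 13.9 CPM and Npas4 at 0.976 CPM, the highest and the lowest VMH values, and Egr1 0.51 above the median. Fasted VMH-311 had Egr2 1.98 and Npas4 0.76 above the median, and fasted PVN-305 had Npas4 1.84 and Egr2 0.94 above it. With the distance lowered to 0.5 log2 units no library had more than 3 high genes, and 2 libraries had 3. Fed PVN-308 had all 5 genes above the median, by 0.20 (Fosl2), 0.39 (Junb), 0.42 (Egr1), 1.08 (Egr2) and 0.86 (Npas4). Fed PVN-313 lay at -4.40 for Junb, the value of 0, and at -1.82 for Npas4.

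**Figure D4:**
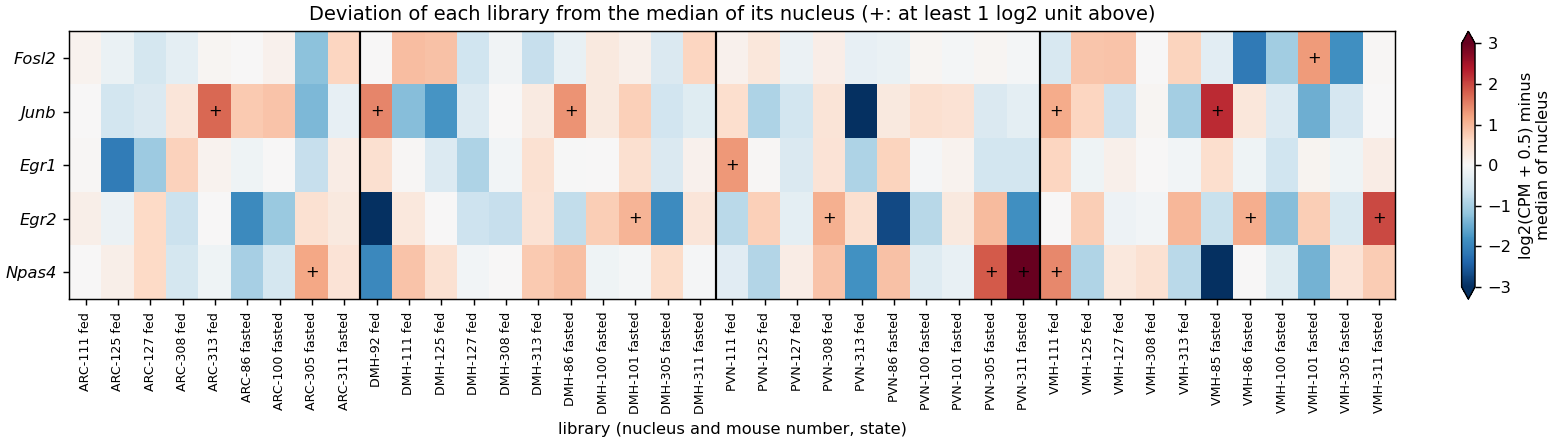
Deviation of each library from the median of its nucleus, on the log2(CPM + 0.5) scale, for the 5 genes (rows) and 41 libraries (columns, by nucleus and state); a plus sign marks at least 1 log2 unit above the median. Plus signs stand alone in their column, except for Junb and Npas4 in VMH-111.

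Correlations between the genes were computed within each nucleus over mice, for 10 pairs in 4 nuclei, 40 in all. Of these, 19 were positive and the median r was -0.02. As measured, Egr2 and Npas4 in the ARC alone passed after adjustment over the 40 (Pearson r = 0.886, exact permutation p = 0.000912, adjusted p = 0.0365; Spearman rho = 0.933, adjusted p = 0.0300; n = 9 mice). Both were low there, and Egr2 rested on 1 to 18 reads a library. Values of Egr2 and Npas4 were 0.304 and 2.74 CPM in fasted ARC-86, 0.895 and 3.94 CPM in fasted ARC-100, 3.22 and 8.05 CPM in fasted ARC-311 and 3.67 and 13.8 CPM in fasted ARC-305. In fed mice they ran from 1.45 and 3.94 CPM (ARC-308) to 4.11 and 9.12 CPM (ARC-127). Without the 2 libraries farthest from the Egr2 median, r was 0.8294 (exact permutation p = 0.0224, adjusted p = 0.264). The same pair had r = 0.178 in the VMH and -0.357 in the PVN. In the DMH r was 0.676 and rho -0.09, and without the 2 libraries farthest from the median r was -0.18, so that the relation rests on those libraries. Junb went against Npas4 in the ARC (r = -0.766, exact permutation p = 0.0163, adjusted p = 0.326; rho = -0.833, adjusted p = 0.165). Junb and Egr1 in the PVN had r = 0.652 (permutation p = 0.0488, adjusted p = 0.546; rho = 0.685). With values centred on batch, 5 of the 40 passed, each at an adjusted permutation p of 0.0799. The centred values were shuffled over all libraries of a nucleus and not within batch, so this p is approximate and can be too low. They were Egr2 with Npas4 in the ARC (r = 0.858) and the DMH (0.765), Junb with Npas4 in the ARC (-0.803), and Fosl2 with Egr1 in the PVN (0.766) and the VMH (0.782). Fosl2 and Egr1 had r of 0.387 and 0.230 in these nuclei before centring, and none of the 40 passed without the 2 farthest libraries.

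**Figure D5:**
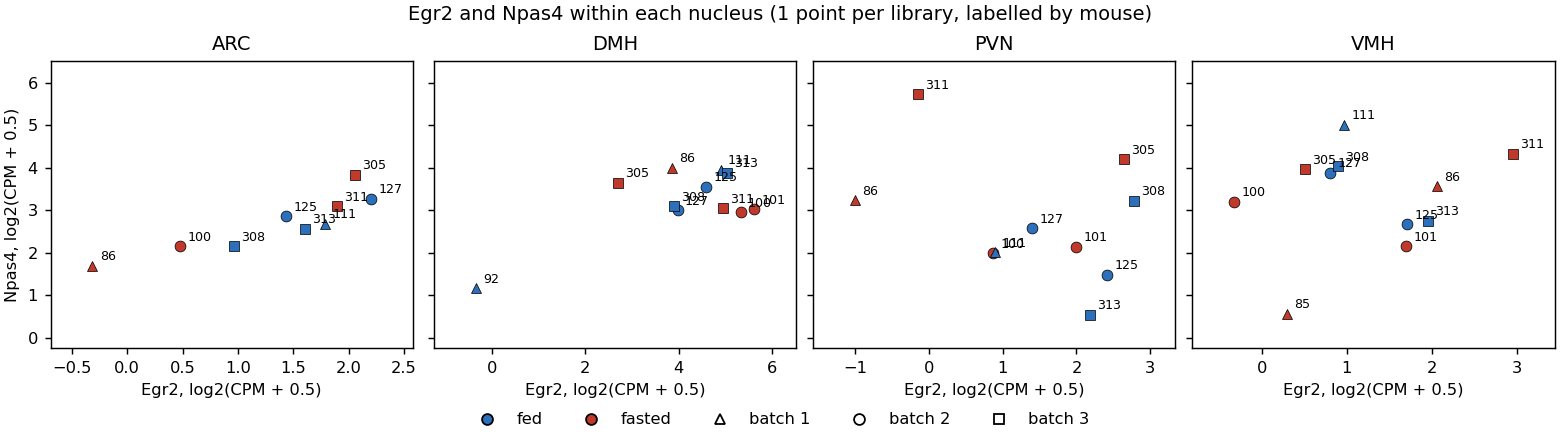
Egr2 against Npas4, both as log2(CPM + 0.5), within each nucleus, with 1 point per library labelled by mouse. The ARC points rise together (r = 0.886), and in the DMH DMH-92 lies apart from the other 10.

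Other genes of the same response were read from lists chosen by role, with earlier results of these data known. Counts of called genes in these lists therefore cannot show enrichment over all genes. Of 23 other immediate early transcription factors, 10 were in the table. Fos, Fosb, Fosl1, Egr3, Egr4, Nr4a1, Nr4a2, Nr4a3, Atf3, Ier2, Klf4, Btg2 and Myc were absent from it and could not be tested. None of the 10 measured passed in any nucleus or in the mean. Their median fasting differences were -0.11 in the ARC, -0.09 in the DMH, -0.25 in the PVN, -0.10 in the VMH and -0.15 in the mean, where the median of all genes lay between -5.18e-05 and 0.02. The most abundant were Klf6 with 63.2 CPM, a zinc finger factor, and the AP-1 partners Jun with 39.0 CPM and Jund with 36.2 CPM (means of 41 libraries, not per length). Jun differed by -0.15 ± 0.13 in the mean (adjusted p = 0.662). Csrnp1 (3.78 CPM), chosen after its values were seen, had the lowest p of the list, with 1.61 ± 0.45 in the PVN (adjusted p = 0.220) and 0.91 ± 0.32 in the mean (adjusted p = 0.156). Between nuclei 5 of the 10 differed in level, as did 12 of 13 effector genes and 7 of 10 upstream and partner regulators described next, where 43% of all genes did.

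Immediate early effector genes encode secreted, signalling and RNA-binding proteins. Arc, Homer1 and Dusp1 are among those of the list that were absent and could not be tested. Of 28 listed, 13 were in the table. Their median fasting differences were 0.56 in the ARC, 0.06 in the DMH, 0.49 in the PVN, -0.04 in the VMH and 0.37 in the mean. With fasting, 1 of 11 tested rose in the ARC, 0 of 12 in the DMH, 2 of 12 in the PVN, 0 of 11 in the VMH and 3 of 13 in the mean, and none fell. Of all genes tested, 0.176%, 0.0103%, 0.367%, 0.0208% and 3.18% were called in these in either direction. The list was not drawn independently of these data, so the shares are a background and not a test of it. Vgf, which encodes a neuropeptide precursor, rose by 0.91 ± 0.19 in the ARC (adjusted p = 0.0867), by 1.00 ± 0.17 in the PVN (adjusted p = 0.0248) and by 0.64 ± 0.12 in the mean (adjusted p = 0.00118). Rasd1, a Ras-like GTPase induced by glucocorticoids, rose by 1.96 ± 0.41 in the PVN (adjusted p = 0.0637). In the mean of the nuclei Trib1, a pseudokinase, rose by 0.81 ± 0.20 (adjusted p = 0.0216) and Errfi1, an inhibitor of EGF receptor signalling, by 0.37 ± 0.11 (adjusted p = 0.0505). Scg2, a granin and the most abundant of the list at 1419 CPM, differed by 0.12 ± 0.05 in the mean (adjusted p = 0.244). With no batch covariate Vgf had an adjusted p of 0.520 in the ARC and 0.728 in the PVN and Rasd1 0.538, with no filter Vgf had 0.212 in the ARC and Rasd1 0.1002, with a pseudocount of 0.1 CPM Vgf had 0.128 in the ARC, and with 1 value per mouse Vgf, Trib1 and Errfi1 had 0.347, 0.359 and 0.531 in the mean. The call of Vgf in the ARC was lost without any 1 of 7 of the 9 libraries, that of Vgf in the PVN without PVN-100 (adjusted p = 0.145), and that of Rasd1 in the PVN without any 1 of 8 of the 10. In the mean, the call of Vgf held without any 1 of the 12 mice, that of Trib1 was lost without the mouse of PVN-86, PVN-100 or PVN-127 (adjusted p up to 0.132), and that of Errfi1 without any of these or the mouse of PVN-101 (up to 0.158).

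Of 31 upstream and partner regulators, 10 were in the table, with median fasting differences of -0.02, -0.02, 0.03, 0.03 and -0.02 in the ARC, DMH, PVN, VMH and mean. Camk2b, a subunit of a calcium-dependent kinase, was the only one called of the 10, in the mean (0.14 ± 0.04, adjusted p = 0.0742), where 3.18% of all genes were. It was at an adjusted p of 0.619 with 1 value per mouse, and the call was lost without any 1 of 8 of the 12 mice (up to 0.230). Ep300, an abundant acetyltransferase of the list (253 CPM), differed by 0.06 ± 0.06 in the mean (adjusted p = 0.708).

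The genes most like each of the 5 across 41 libraries, after the mean of each nucleus was subtracted, were found among 7522 genes of at least 5 CPM. They were Nkx2-4 (r = 0.54), Fbxw2 (0.53) and Mcc (0.50) for Fosl2, and Jmjd6 (0.69), Nacad (0.59) and Rras (0.59) for Junb. For Egr1 they were Rpp25l (0.63), Mapk3 (0.62) and Ubqln2 (0.59), for Egr2 Anapc10 (0.71), Rbm6 (0.70) and Dnaja2 (0.65), and for Npas4 Atxn7l3 (0.55), Greb1 (0.55) and Cdr2 (0.54). Mapk3 (ERK1) is on the list of upstream regulators, and none of the other 14 is on any of the lists. These are the highest of many correlations over libraries that share mice and batches, given as a description.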

How the data were processed

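Laser-captured nuclei went through dissection and library preparation in 3 batches with amplification of RNA, and the authors mapped single-end reads to GRCm38 with TopHat2 (2.0.11); Cufflinks (2.2.1), edgeR and limma are also named, and the authors removed outlying samples. The counting program and its use of strand are not given in the sources used here. The deposited table holds CPM per Ensembl gene. Of 43 labelled samples, 41 were matched to columns. For the mice of VMH-85 and DMH-92, 1 column each is headed ARC while the label gives PVN, so a heading or a label may be mistaken, and these 2 columns were not used. Low values were whole multiples of 1 step in 97.8% to 98.8% of cases (tolerance 0.1), which gave depth, but not for all genes, so no count model was fitted. Symbols and coordinates came from GENCODE (GRCm38), promoters from RefSeq (4 of 5 genes matched, all but Egr1).

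log2(CPM + 0.5) was tested with limma 3.58.1 in R 4.3.3 on genes of at least 1 CPM in as many libraries as the smallest group, with adjusted p (Benjamini-Hochberg over all genes) below 0.1 as the call. Fasting was tested per nucleus with batch, and over nuclei with mouse as a random effect; between nuclei, mouse was a fixed block, because same-numbered libraries come from 1 animal (their correlation after state and batch was -0.003). Correlations used permutation over all libraries of a nucleus (exact for 9 mice, 100000 resamples otherwise; Python 3.11.15, numpy 2.4.6). For values centred on batch it is only approximate, also with 9 mice. Named genes are the 5 members, the 3 most like each, list genes past the threshold with fasting and the 3 most abundant of each list, of which 1 is not reported here; Csrnp1 was added after its values were seen. The members and lists were chosen with earlier results of these data known. The fits were tested on simulated data. Alternatives were other pseudocounts, no filter, rescaling, library weights, no batch, no block, 1 value per mouse and leaving out each library or mouse.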

Additional observations from a re-analysis of the deposited data

Results flagged for a closer look

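In 40 groups of 4 to 6 libraries (5 genes, 4 nuclei, 2 states), 4 had 1 library whose gap to the next was above Dixon's 95% critical value. The gap was taken on CPM and not on the log2 scale. About 2 such groups are expected for normally distributed values, and skewed values such as low CPM can pass more often. Junb was at 10.96 CPM in fed ARC-313, against 1.86 to 3.94 CPM in the other 4 fed libraries. Junb was at 11.9 CPM in fed DMH-92, against 0.831 to 4.92 CPM in the other 5. That library also had the highest summed oligodendrocyte, microglial, endothelial and blood markers of the DMH, and the highest mural and meningeal sum, which was mostly Igf2. Junb was at 13.9 CPM in fasted VMH-85, against 0.609 to 3.37 CPM in the other 5, and that library had the highest blood markers of all 41 (67.4 CPM). Fosl2 was at 27.7 CPM in fasted VMH-101, against 2.14 to 11.3 CPM in the other 5. The part of these markers in the Junb values was not tested.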

How the results depend on the processing

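The level calls of Fosl2, Egr1 and Egr2 and the PVN over VMH call of Junb held under all 6 alternatives of processing and without any 1 of the 12 mice. No alternative run moved any of the 5 genes past the threshold with fasting or in the test between nuclei, and the count of jointly high libraries was 0 in the 3 alternatives run for it. Depth limits Egr2, Junb and Npas4, with under 20 reads in 29, 23 and 11 of 41 libraries, against 3 for Fosl2 and 0 for Egr1. For the changes that follow the cause was not tested.

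With no mouse block (unpaired fit), the Npas4 F-test had an adjusted p of 0.379, its ARC minus VMH difference was -0.67 and its PVN minus VMH difference -0.62, neither passing, so that 1 of 5 genes was called between ARC and VMH; Egr2 ARC minus PVN was -0.067. The block changed no other call of these genes. With a pseudocount of 0.1 CPM the Junb F-test had an adjusted p of 0.174, Egr2 PVN minus VMH was -0.060, fasting Npas4 in the ARC -0.0088, and 4 genes were called in the ARC. With a pseudocount of 2 CPM Junb passed between ARC and PVN (-0.89) and between DMH and PVN (-0.82), Egr2 ARC minus PVN was -0.042, and fasting Egr2 in the VMH 0.060. With no filter, 4 genes were called with fasting in the ARC and 23 in the PVN. Rescaling moved fasting Npas4 in the ARC to -0.016. Library weights gave 2, 79, 5 and 493 called genes in the DMH, PVN, VMH and mean, fasting Fosl2 0.011 and Egr1 0.023 in the PVN, Egr2 ARC minus PVN -0.0057 and Egr1 ARC minus VMH 0.025. With no batch covariate, 0, 0, 3 and 1 genes were called in the ARC, DMH, PVN and VMH, and fasting Npas4 in the ARC was -0.0093. With 1 value per mouse, 2 genes were called in the mean and fasting Egr2 was 0.31. Of the 40 correlations, 5 passed with values centred on batch, where the permutation is approximate, and 0 without the 2 farthest libraries.

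Leaving out each library in turn, the fasting differences in the ARC ranged from -0.26 to 0.43 (Fosl2), -0.97 to 0.28 (Junb), -0.48 to 0.47 (Egr1), -0.93 to -0.12 (Egr2) and -0.33 to 0.41 (Npas4). In the DMH they ranged from -0.17 to 0.29 (Fosl2), 0.36 to 0.92 (Junb), -0.034 to 0.30 (Egr1), 0.013 to 1.10 (Egr2) and -0.21 to 0.40 (Npas4), in the PVN from -0.18 to -0.014 (Fosl2), 0.27 to 1.75 (Junb), -0.34 to 0.078 (Egr1), -1.46 to -0.61 (Egr2) and 0.83 to 1.89 (Npas4), and in the VMH from -1.28 to -0.61 (Fosl2), -0.45 to 0.054 (Junb), -0.27 to -0.075 (Egr1), -0.44 to 0.32 (Egr2) and -1.06 to 0.078 (Npas4). Called genes numbered 3 to 23, 1 to 2, 2 to 31 and 1 to 5 in these nuclei, with the low of 2 in the PVN without PVN-100, of 3 in the ARC without ARC-100, ARC-311 or ARC-308, and the high of 5 in the VMH without VMH-85. Leaving out each mouse, the mean fasting differences ranged from -0.44 to -0.076 (Fosl2), 0.20 to 0.59 (Junb), -0.087 to 0.15 (Egr1), -0.39 to 0.089 (Egr2) and -0.033 to 0.53 (Npas4), with 155 to 352 genes called (155, 188, 187 and 208 without the mouse of PVN-100, PVN-101, PVN-308 or PVN-127), and 0 to 1 in the test between nuclei (1 without the mouse of PVN-308). F-test adjusted p ranged from 0.00012 to 0.126 for Junb and 0.014 to 0.134 for Npas4. Differences between nuclei ranged from -0.24 to 0.0072 (Junb) and -1.01 to -0.62 (Npas4) for ARC minus DMH, from -1.67 to -0.84 (Junb), -0.20 to 0.20 (Egr2) and -0.30 to 0.092 (Npas4) for ARC minus PVN, and from -0.22 to 0.12 (Egr1), -0.16 to 0.42 (Egr2) and -1.12 to -0.81 (Npas4) for ARC minus VMH, with 1 to 2 genes called. For DMH minus PVN they ranged from -1.49 to -0.69 (Junb), -0.66 to -0.32 (Egr1) and 0.48 to 1.02 (Npas4), with 2 to 4 genes called, for DMH minus VMH from -0.30 to 0.0051 (Npas4), and for PVN minus VMH from -0.25 to 0.40 (Egr2) and -1.02 to -0.68 (Npas4).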
